A study of Mus musculus with 10 samples.

Results

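Described here are the 5 libraries titled Tumor1 to Tumor5, chosen by their titles alone out of the 10 libraries of the series. Each holds RNA of regulatory T cells (Tregs) that were sorted from colon tumours with gates on CD45, the T cell markers CD3 and CD4, the activation marker CD25 and the Foxp3 reporter GFP, and was sequenced by Smart-seq2, a method that reads full-length transcripts from small amounts of RNA. The labels give the mice as Apc Min/+, male, C57BL/6 and 16 weeks old, and the protocol adds the Foxp3 DTR allele, which the other mice of the series also carry. Apc Min/+ mice hold 1 truncated copy of the tumour suppressor gene Apc in every cell and develop intestinal adenomas, and the Foxp3 DTR allele makes Foxp3-expressing cells produce the human diphtheria toxin receptor fused to GFP. The GFP gate therefore reads the same locus that the libraries are checked on below. Whether the 5 samples came from separate mice or from pooled animals is not given in the sources used here, so the spread between libraries may in part be technical. All 5 belong to 1 group, so every value is a description and no test between groups was made.

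Tregs are CD4 T cells that restrain other immune cells, and the transcription factor Foxp3 holds their programme in place. They take up interleukin 2 through the receptor chain Il2ra (CD25), block costimulation by dendritic cells through Ctla4, and in tissues and tumours often carry high levels of TNF receptor family members such as Tnfrsf4, Tnfrsf9 and Tnfrsf18 and the chemokine receptor Ccr8. Tissue Tregs are also known for secreted products that act on other cells, among them Il10, the growth factor Areg and Penk, the precursor of enkephalin peptides.

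Total counts per library were 3901829, 3054435, 7747699, 5793645 and 3996988 in replicates 1 to 5, over 54532 annotated genes of which 22046 were protein coding. Levels are given as CPM, the share of a gene in the counts of its library, scaled to counts per 1000000. Where different genes are set side by side the level is in CPM per kilobase (kb) of the deposited gene length, and ranks run from 1, the highest CPM per kb, over the protein coding genes. Counts of listed genes that reached 1 CPM in every library are to be read beside the 55.1% of all protein coding genes that did. The libraries differed in what filled them: annotated rRNA took 1.63% to 12.4% of counts, the nuclear gene Lars2 (mitochondrial leucyl-tRNA synthetase) 0.641% to 6.71%, the predicted gene Gm10800 0.844% to 5.77%, and between 325 and 1178 genes made up 50% of the counts.

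Several libraries stood apart in genes that a Treg is not known for, and those values come before the results. Replicate 5 held 381 protein coding genes at 10 CPM or more that lay over 5-fold above each of the other libraries, against 109 in replicate 1, 80 in replicate 4, 75 in replicate 2 and 10 in replicate 3. The 381 included Gpx2, Hba-a1, S100a9 and Tff3. Among colon epithelial genes, the keratin gene Krt8 measured 13.8, 0.327, 255, 288 and 1414 CPM in replicates 1 to 5, and Tff3, a goblet cell peptide, 0.256, 11.1, 9.03, 11.6 and 719 CPM. Krt8 was thus near 0 in replicate 2, intermediate in replicates 3 and 4 and highest in replicate 5, while Tff3 was high in replicate 5 alone. Summed over 16 epithelial genes the level was 173, 46.2, 1276, 2351 and 5755 CPM in replicates 1 to 5, and 6 of them reached 1 CPM in every library.

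Myeloid genes were present in every library. The lipid carrier Apoe measured 630.5, 3161, 954, 738 and 3470.1 CPM and the lysozyme gene Lyz2 365, 771, 161, 835 and 1325 CPM in replicates 1 to 5, with replicate 5 highest for each and replicate 2 close behind for Apoe. All 12 macrophage and monocyte genes reached 1 CPM in every library, with sums of 1341, 4932, 1459, 2037 and 6074 CPM. For 9 neutrophil genes the sums were 54.6, 113, 113, 406 and 1795 CPM, and the defining markers Retnlg and Ly6g were at 0, 0, 4.90, 8.28 and 47.5 CPM and 2.31, 0.327, 2.84, 5.01 and 49.8 CPM, low in every library but replicate 5. The 5 hemoglobin and other red blood cell genes summed to 18.97, 0.655, 244, 0.690 and 1258 CPM, so that replicates 2 and 4 held almost none and replicate 5 the most.

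Genes of other lymphocytes followed other patterns. Replicate 1 carried the plasma cell genes Igha at 1733, 4.91, 0.387, 1.21 and 3.50 CPM, Igkc at 888, 0, 14.5, 12.8 and 0 CPM and Jchain at 287, 1.96, 9.29, 1.90 and 1.25 CPM in replicates 1 to 5, and the 8 plasma cell genes together at 3006, 189.6, 218, 194 and 124 CPM. Apart from Ighm, which ranged over 45.8 to 176 CPM in all 5 libraries, the immunoglobulin genes named here were high in replicate 1 alone. Replicate 4 stood out for the CD8 coreceptor chain Cd8a at 10.3, 9.82, 1.81, 72.7 and 0 CPM, the cytotoxic granule gene Nkg7 at 31.3, 99.5, 62.6, 414 and 39.5 CPM and the gamma delta T cell receptor constant gene Tcrg-C1 at 0.769, 0.327, 2.84, 49.02 and 1.75 CPM. Where a library showed 0 reads, as replicate 5 did for Cd8a, a count of 0 allows up to 3 reads, or 0.751 CPM in replicate 5.

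Of the remaining lists, 9 B cell genes summed to 54.5 to 108 CPM, 11 dendritic cell genes to 62.1 to 302 CPM, 9 mast cell and basophil genes to 45.9 to 167 CPM, 7 fibroblast genes to 35.9 to 204 CPM and 7 endothelial genes to 60.9 to 193 CPM. Against these, the 14 pan-T genes summed to 4307 to 6819 CPM and the 17 Treg core genes to 5165 to 9149 CPM, and all of both lists reached 1 CPM in every library. The Treg core sum was below the epithelial and macrophage sums in replicate 5 alone. In these bulk libraries fewer cells of a type and less RNA per cell cannot be told apart. Several values that rest on replicate 5, though not all, are given below with and without it.

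**Figure D1:**
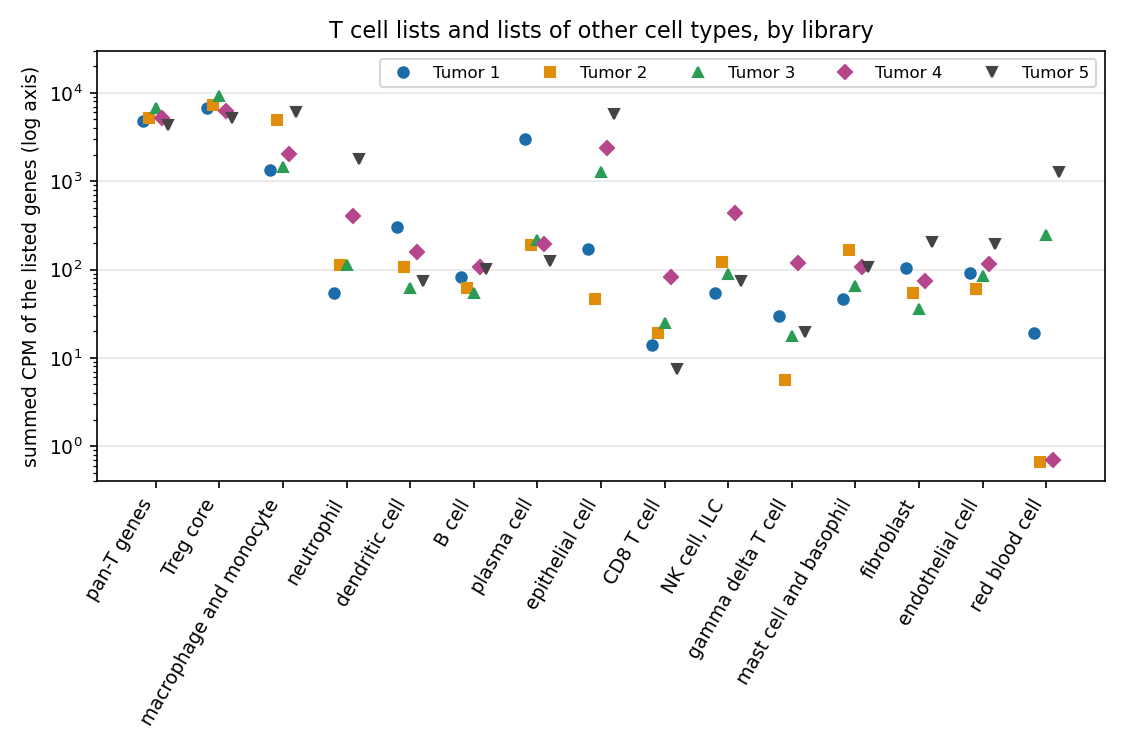
Summed CPM (log axis) of T cell lists and of lists for other cell types in each of the 5 Tumor libraries, 1 point per library. The pan-T and Treg core sums lie within 2-fold between libraries. Sums of the epithelial, neutrophil, plasma cell, red blood cell, CD8 T cell and gamma delta T cell genes spread over more than 10-fold.

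The sort was checked on its own markers and the 6 Treg markers. Foxp3, at chrX:7579676-7595243 in mm10, measured 73.04, 84.8, 117, 35.9 and 96.8 CPM in replicates 1 to 5. Replicate 3 was highest and replicate 4 lowest, with the other three between 73.0 and 96.8 CPM. The mean was 81.6 ± 30.4 CPM (SD, n = 5) with replicate 4 and 93.0 CPM without it, and the gene ranked 1854 among protein coding genes by its mean. Replicate 4, lowest for Foxp3, was also the library highest for Cd8a and Nkg7, and their part in the Foxp3 value was not tested.

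Il2ra (chr2:11642807-11693193), the CD25 chain used in the sort, measured 581, 456, 707, 475 and 388 CPM. Ctla4 (chr1:60887000-60915832), the inhibitory receptor, measured 1289.9, 1387, 1972, 1613 and 801 CPM and was lowest in replicate 5 and highest in replicate 3. Tnfrsf9 (chr4:150914562-150946102), the costimulatory receptor 4-1BB, measured 1631, 1469, 1590.0, 1084 and 974 CPM, with replicates 4 and 5 below the other three. Each of these 3 genes exceeded Foxp3 in every library on the CPM per kb scale too, at means of 91.2 ± 21.8, 606 ± 185 and 496 ± 111 CPM per kb against 20.5 ± 7.61 (SD, n = 5).

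Ccr8 (chr9:120092114-120094906), a chemokine receptor of tissue Tregs, measured 127, 167, 232, 112 and 83.1 CPM, highest in replicate 3 and lowest in replicate 5. Penk (chr4:4133531-4138819) measured 1346, 1452, 1781, 581 and 1753 CPM with replicate 4 over 2-fold below the next lowest library. Its mean was 1382 ± 486 CPM, or 1583 CPM without replicate 4. Levels of Foxp3 and Penk were thus both lowest in replicate 4, whereas Ctla4, Tnfrsf9, Il2ra and Ccr8 were lowest in replicate 5.

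For the T cell identity of the libraries, Cd4 measured 279, 252, 363, 310.2 and 216 CPM and Cd3e 206, 213, 275, 244 and 205 CPM, with replicate 3 highest for both. The ratio of Cd4 to Cd8a in CPM per kb was 24.5, 23.2, 181 and 3.85 in replicates 1 to 4, and could not be formed in replicate 5, where Cd8a had no read. Ddx3y, a gene of the Y chromosome, ranged over 81.8 to 206 CPM, as the label male implies. Apc measured 34.3 to 53.4 CPM, and counts per gene cannot separate its 2 alleles.

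**Figure D2:**
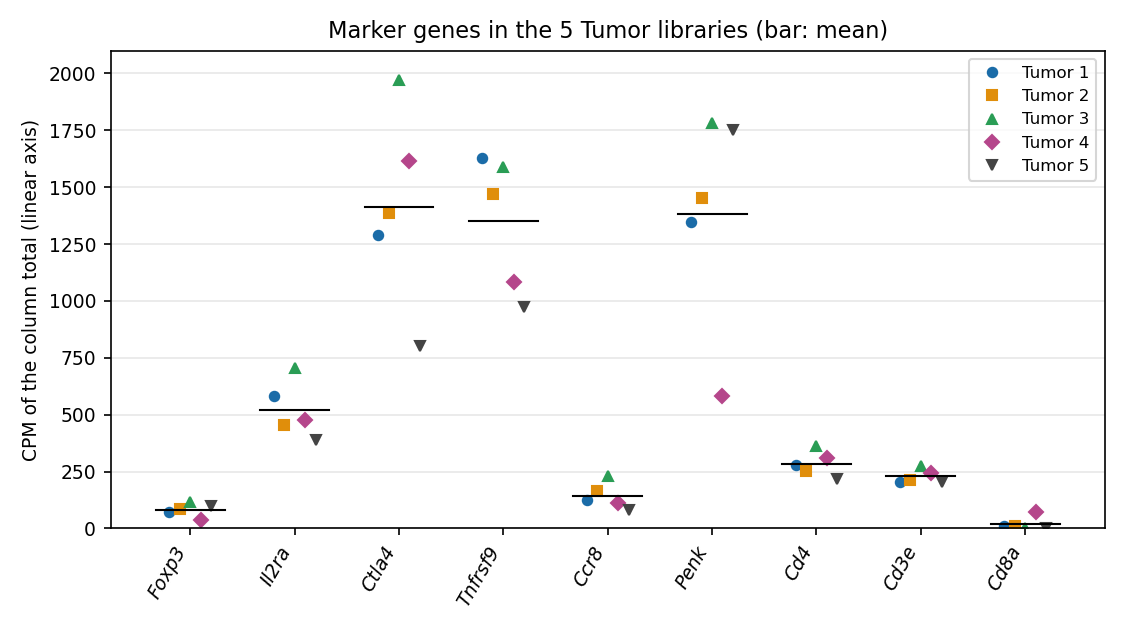
CPM (linear axis) of the 6 Treg markers and of Cd4, Cd3e and Cd8a in the 5 Tumor libraries, 1 point per library, with the mean as a bar. Foxp3 stays at or below 117 CPM while Ctla4, Tnfrsf9 and Penk average above 1300 CPM, and Penk is at 581 CPM in replicate 4.

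Across protein coding genes the libraries resembled each other to a moderate degree. Spearman's rho of log2(CPM + 1) lay between 0.744 and 0.866 over the 10 pairs (median 0.805), and Pearson's r between 0.757 and 0.881 (median 0.818). These are correlations across genes, which are not independent replicates, and carry no test. Replicates 3 and 4, the deepest libraries, were the most alike and replicates 2 and 5 the least. Pairs with replicate 5 had a median rho of 0.786 and pairs without it 0.818. Between 71 and 92 of the 100 highest genes by CPM per kb were shared by a pair, 65 were among the highest 100 in all 5 libraries, and 27 of those 65 encode ribosomal proteins. Every pair differed by more than sampling noise (chi-square per gene of 29.9 to 63.4), so no pair agreed as closely as 1 library deposited again would, and each was counted as 1 sample. Whether they came from separate animals cannot be read from this.

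**Figure D3:**
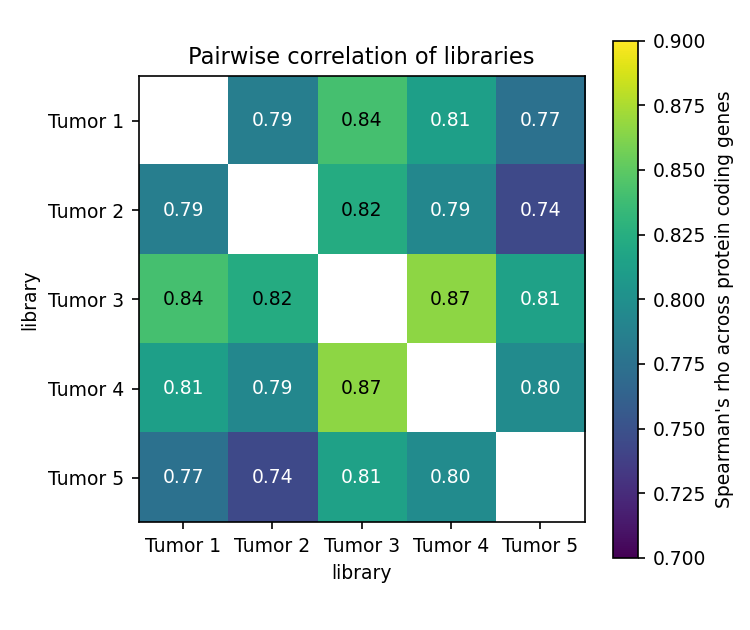
Spearman's rho across protein coding genes for each pair of the 5 Tumor libraries, as a colour and a number, with the diagonal left empty. The highest value, 0.87, joins replicates 3 and 4 and the lowest, 0.74, joins replicates 2 and 5.

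Detection was broad but uneven. Between 14524 and 17529 protein coding genes reached 1 CPM in a library, 12153 of 22046 (55.1%) did so in all 5, 20296 in at least 1, and 624 had no read in any. Replicate 2 was the low value at 14524, with the other libraries between 17011 and 17529, and it also had the smallest total count. At that total, 13713 to 15344 protein coding genes were expected to reach 10 reads in the other libraries. Replicate 2 had 12590, so it was also lowest at equal depth. Among 318 listed surface receptors and surface proteins 252 (79.2%) reached 1 CPM in every library. The count was 182 of 198 (91.9%) for listed transcription factors and 86 of 172 for listed cytokines and other secreted factors. Median levels over all measured members were 29.9 CPM for the surface class, 53.2 CPM for the transcription factors and 9.64 CPM for the secreted class, beside 9.38 CPM over all protein coding genes.

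Among all protein coding genes, nuclear and other than ribosomal proteins, the highest mean level belonged to Gm10800 at 39074 ± 29257 CPM per kb. This predicted gene, like the other predicted genes Gm10801 and Gm21738 among the first 20, varied widely, with 57707, 25945, 24047, 12806 and 8437 CPM in replicates 1 to 5. Lars2 was also among the first 20 at 67149, 56154, 35029, 50694 and 6415 CPM, and replicate 5 was lowest for Lars2 and Gm10800. Whether the reads counted for Lars2 and these predicted genes come from their own transcripts was not tested, so their levels are not read as expression. The other leaders were genes that most cells express: the actin-binding peptide Tmsb4x at 7755, 6661, 8448, 9536 and 10620.0 CPM, the MHC class I light chain B2m at 2084, 3668, 4138, 7261 and 2229 CPM, Actb at 8409, 10089, 9982, 8596 and 8837 CPM and the ferritin heavy chain Fth1 at 1843, 1990.2, 2069.8, 2222 and 1659.8 CPM. B2m was highest in replicate 4, while Actb hardly moved. Further down the first 20 came the secreted galectin Lgals1, the surface proteins Ly6a and Cd52, the elongation factor Eef1a1, the MHC heavy chains H2-K1 and H2-D1, the calcium-binding proteins S100a10 and S100a6, the actin-binding Tmsb10, the interferon-inducible Ifi27l2a, the respiratory chain subunit Ndufa2 and Nfkbia, the inhibitor that holds NF-kappaB in the cytoplasm, at 2291, 1459.5, 2243, 1388 and 1170.1 CPM.

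Between libraries a gene varied by far more than the counts alone would give. The coefficient of variation (CV, the SD over 5 libraries as a percent of the mean) had a median of 46.2% over the 10709 protein coding genes that averaged 10 CPM or more, where counting error alone gives 9.91%. Over the 1378 that averaged 100 CPM or more it was 27.0% beside 3.92%, and 1371 of the 1378 exceeded 2 times their counting error. The median was 37.6% for 174 listed transcription factors, 45.0% for 246 surface genes and 59.0% for 84 secreted factors. Without replicate 5, the same genes gave 34.5%, 39.1% and 51.5%, against 43.0% over all 10709. Over the 10880 genes that passed a low-count filter, a count model (edgeR, intercept alone) put the common biological coefficient of variation at 49.3%. The gene-wise medians were 55.1% for genes at 1 to 10 CPM and 33.4% for those at 1000 CPM and over.

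Among genes above 100 CPM the lowest CV belonged to Sf3b5. This splicing factor subunit measured 105, 110.0, 104, 103 and 108 CPM (CV 2.77%), which is no more than counting error. Next came the respiratory chain subunit Ndufa1 (CV 3.61%), Prpf38b, Tsn, Hint1, the splicing factor Puf60, Chchd2 and Minos1 (CV 7.82%). Among lineage genes Cd3d was steady at 896, 1053, 935, 810.2 and 960.2 CPM (CV 9.53%). At the other end stood Tff3 (CV 212%), Hba-a1 (193%), the epithelial glutathione peroxidase Gpx2 (171%), S100a9 (170.0%), the mucin Muc2 (159%), Krt8 (148%), S100a8 (147%) and Krt19 (139%). None of these 8 is on the Treg lists used here. Replicate 5 was highest for each of them but Muc2, which was highest in replicate 4 at 33.3, 2.95, 104, 749 and 92.6 CPM in replicates 1 to 5. Without replicate 5 the CV of Tff3 was 65.99%, that of Krt8 110.1% and that of S100a9 112%.

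**Figure D4:**
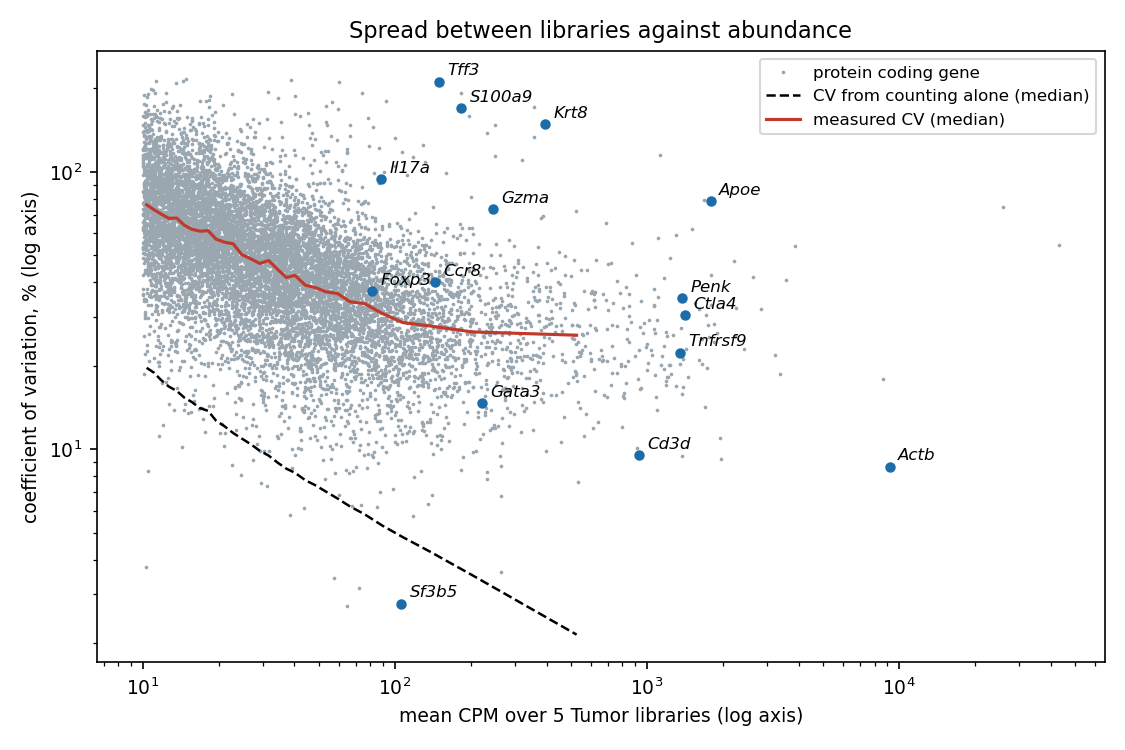
CV between the 5 Tumor libraries (log axis) against mean CPM (log axis) for 10709 protein coding genes, with the measured median as a solid line and the median CV from counting alone as a dashed line. The solid line lies above the dashed one at every level, Sf3b5 and Cd3d are among the steadiest genes and Tff3 among the most variable.

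The surface class was led, per kb, by Ly6a (1371 ± 341 CPM per kb, SD, n = 5), Cd52, Tnfrsf4, Ly6e, Ctla4, Cd3d, Tnfrsf9, Tnfrsf18, Cd53 and Icos (311 ± 103). Ly6a, also known as Sca-1, is a GPI-anchored protein of activated lymphocytes and measured 1468, 1816, 2070.4, 1878 and 1028 CPM in replicates 1 to 5. Cd52, another GPI-anchored protein of lymphocytes, measured 967, 1429.7, 1439, 1041 and 1148 CPM. No gene of the first 10 exceeded its successor in all 5 libraries. Ly6a exceeded Cd52 in 4 of 5, by 356 CPM per kb on average beside a larger SD of 341, and for the other neighbours the difference in means was below the larger SD. The set was steadier than the order: 7 of the 10 were among the first 10 in every library, and 14 genes entered the first 10 of at least 1 library. In all 8 surface genes ranked within the first 100 protein coding genes by mean.

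TNF receptor superfamily members carry costimulatory and death signals, and 3 of 27 were far above the rest. Tnfrsf4 (OX40) measured 1299, 1580.0, 1628, 751 and 571 CPM, with replicates 4 and 5 below the other three by a wide gap. Tnfrsf18 (GITR) measured 733, 782, 1110.0, 468 and 567 CPM and was likewise lowest in replicates 4 and 5. Per kb, Tnfrsf4 averaged 854 ± 353, Tnfrsf9 496 ± 111 and Tnfrsf18 480.4 ± 161, followed by Tnfrsf1b, the TNF receptor 2, at 93.98 ± 35.99 CPM per kb. The family summed to 4604, 4836, 5443, 3227 and 2797 CPM, and 23 of 27 members reached 1 CPM in every library.

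Of 31 costimulatory and inhibitory receptors 24 reached 1 CPM in every library, and inhibitory as well as activating members were high. Icos, the inducible costimulator, measured 788, 1209.7, 1347, 1393 and 602 CPM, and Cd2, the adhesion receptor of T cells, 478, 403, 764, 373 and 337 CPM. Tigit, an inhibitory receptor, was far less even at 135, 256, 332, 181 and 49.8 CPM, a 6.66-fold range with replicate 5 lowest. Pdcd1 (PD-1) was flat by comparison at 263, 298, 289, 193 and 297 CPM (CV 16.5%). The ratio of Ctla4 to its stimulatory counterpart Cd28 was 14.9, 19.8, 19.5, 9.91 and 20.98 in CPM per kb, so Ctla4 was the higher of them in every library.

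Cytokine receptors were led per kb by Ifngr1, the ligand-binding chain for interferon gamma, at 762, 875, 991, 762 and 654 CPM. Il7r, the interleukin 7 receptor, followed at 1051, 824, 1008, 949.8 and 416 CPM and was lowest in replicate 5. Il1r2, a decoy receptor that binds interleukin 1 without signalling, measured 299.9, 349, 426, 242 and 267 CPM and was 16.7 to 121 times as high per kb as the signalling receptor Il1r1. The 3 chains of the high-affinity interleukin 2 receptor averaged 150.1 ± 31.8 (Il2rb), 141 ± 22.3 (Il2rg) and 91.2 ± 21.8 (Il2ra) CPM per kb. Of 59 receptors in this family 49 reached 1 CPM in every library.

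Among 23 chemokine receptors, which steer cells along chemokine gradients, Cxcr6 and Ccr8 led per kb. Cxcr6, the receptor of Cxcl16, measured 217, 240.3, 421, 627 and 306 CPM and was highest in replicate 4, whereas Ccr8 was highest in replicate 3. Ccr2 measured 468, 416, 721, 481 and 258 CPM, above Ccr8 in every library before division by gene length. Ccr7, the receptor that guides cells to lymphatics and lymph nodes, measured 186, 195, 127, 41.1 and 82.3 CPM and was lowest in replicate 4. Cxcr4 was the evenest of those named at 105, 138, 118, 109 and 104 CPM (CV 12.04%). Macrophages and monocytes also carry Ccr2 and Ccr1, and the part of the macrophage genes in these levels was not tested.

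For adhesion, Itgb7, the beta chain of the gut-homing integrins, measured 494, 562, 790.3, 361 and 389 CPM and its partner Itgae (CD103) 104, 158, 305, 205 and 155 CPM. Selplg, the ligand of P-selectin, measured 337, 528, 530.5, 462 and 246 CPM, and 41 of 43 integrin and adhesion genes reached 1 CPM in every library. Receptors for lipid ligands formed a further group: P2ry10 measured 443, 360.5, 521, 489.8 and 299 CPM, the oxysterol receptor Gpr183 330.1, 266, 364, 438 and 268 CPM and the leukotriene B4 receptor Ltb4r1 139, 222, 231, 73.5 and 135 CPM. S1pr1, through which lymphocytes leave tissues, was highest in replicate 4 at 73.8, 73.7, 85.1, 251 and 134 CPM in replicates 1 to 5. Klrg1, an inhibitory lectin of terminally differentiated lymphocytes, measured 315, 529.7, 627, 217 and 168 CPM and was lowest in replicates 4 and 5. Of the ectoenzymes that turn extracellular ATP into adenosine, Entpd1 (CD39) measured 31.8, 125, 102, 111 and 77.6 CPM and Nt5e (CD73) 158, 95.9, 221, 273 and 147 CPM, both low per kb (16.1 ± 6.57 and 20.8 ± 7.99).

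The secreted class was led per kb by Lgals1, Penk, Areg, Mif, S100a8, S100a9, Ctla2a, Gzmb, Ltb and Il10, of which 4 were among the first 10 in every library. Lgals1, the galectin that binds glycans on T cells, measured 994, 1659, 1506, 1501 and 1596 CPM and exceeded Penk per kb in 5 of 5 libraries. Penk exceeded Areg in 3 of 5, and Areg exceeded Mif in 5 of 5. Areg, the EGF receptor ligand amphiregulin known from tissue repair, measured 1118, 874, 1258, 657 and 1055 CPM (chr5:91139599-91148432). Mif, a broadly expressed cytokine, measured 209.9, 279, 331, 307 and 235 CPM.

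The neutrophil products S100a8 and S100a9 entered this order through replicate 5. S100a8 measured 22.3, 78.9, 34.6, 220.4 and 891 CPM and S100a9 9.995, 6.88, 48.9, 116 and 736 CPM in replicates 1 to 5. Their means were 249 and 184 CPM with replicate 5 and 89.1 and 45.4 CPM without it, and the neutrophil sum given above was highest in the same library. Cst3, Il1b and Cxcl2, which myeloid cells also make, stood at 11th, 13th and 14th of the class. Il1b measured 266, 269.8, 149, 279.6 and 517 CPM and the chemokine Cxcl2 229, 389, 197, 202 and 526 CPM, with replicate 5 highest for each. The part of myeloid genes in these levels was not tested.

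Suppressive and cytotoxic products varied between libraries. Il10, the anti-inflammatory cytokine, measured 375, 409, 515, 417 and 129 CPM, with 4 libraries between 375 and 515 and replicate 5 at 129. Its mean was 369 CPM with replicate 5 and 429 CPM without it. Gzmb, the granzyme B protease, measured 570.2, 346, 490.0, 789.8 and 165 CPM and Gzma, granzyme A, 35.9, 395, 284, 430.5 and 78.6 CPM. Replicate 4 was highest for both, and it was also the library highest for Nkg7 and Cd8a. Gzma was lowest in replicate 1, where Gzmb was second highest, so the granzymes did not rank the libraries alike. Ctla2a, a cysteine protease inhibitor with a near-identical neighbour, measured 824, 603, 609, 325 and 1227 CPM. Its mean was 718 CPM with replicate 5 and 590 CPM without it. Ebi3, a subunit of interleukin 35, was low at 33.1, 46.8, 36.5, 5.18 and 7.01 CPM, and Tgfb1 measured 41.01, 18.99, 30.3, 33.1 and 53.8 CPM.

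Helper T cell cytokines were low in most libraries and high in few. Il17a measured 60.5, 16.04, 18.7, 207 and 139.9 CPM, highest in replicates 4 and 5. Ifng, the defining cytokine of type 1 cells, measured 0.769, 0, 2.07, 69.6 and 0 CPM and Il22 1.28, 0, 0.516, 25.7 and 10.01 CPM, so that replicate 4 held most of both. The 10 helper cytokines summed to 99.7, 44.2, 56.8, 338 and 194 CPM, and 3 of 10 reached 1 CPM in every library. Replicate 4 was highest for this sum, for the CD8 genes and for the gamma delta T cell genes, and their part in the cytokine values was not tested. Of the TNF superfamily ligands, Ltb, the membrane anchor of lymphotoxin, measured 483, 548, 652, 416 and 276 CPM and no other ligand came near it per kb (Tnfsf11, 31.4 ± 11.4 against 313 ± 93.2). Tnfsf9, the ligand of Tnfrsf9, was at 9.74, 13.4, 8.91, 2.93 and 5.50 CPM.

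Chemokine ligands recruit other cells. Besides Cxcl2, given above, Ccl4 measured 24.6, 49.8, 102, 102 and 20.02 CPM and Ccl5 47.9, 79.6, 64.5, 178 and 20.3 CPM in replicates 1 to 5. Ccl5, a chemokine of cytotoxic and memory T cells, was highest in replicate 4 and lowest in replicate 5. Of 35 chemokine ligands 15 reached 1 CPM in every library, a smaller share than the 55.1% of all protein coding genes. Among 41 growth factor genes Areg stood alone, since the next per kb were Grn (progranulin) at 52.3 ± 17.1 and Hbegf, another EGF receptor ligand, at 32.2 ± 20.1 CPM per kb against 817 ± 191 for Areg. Hbegf measured 67.7, 38.3, 75.2, 43.8 and 157 CPM, highest in replicate 5, and averaged 76.5 CPM with that library and 56.3 CPM without it. Tnfsf11 (RANKL) measured 55.1, 38.6, 65.7, 99.6 and 92.3 CPM and Tnf 10.5, 24.2, 20.5, 64.9 and 48.5 CPM, and replicates 4 and 5 were the highest for both.

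**Figure D5:**
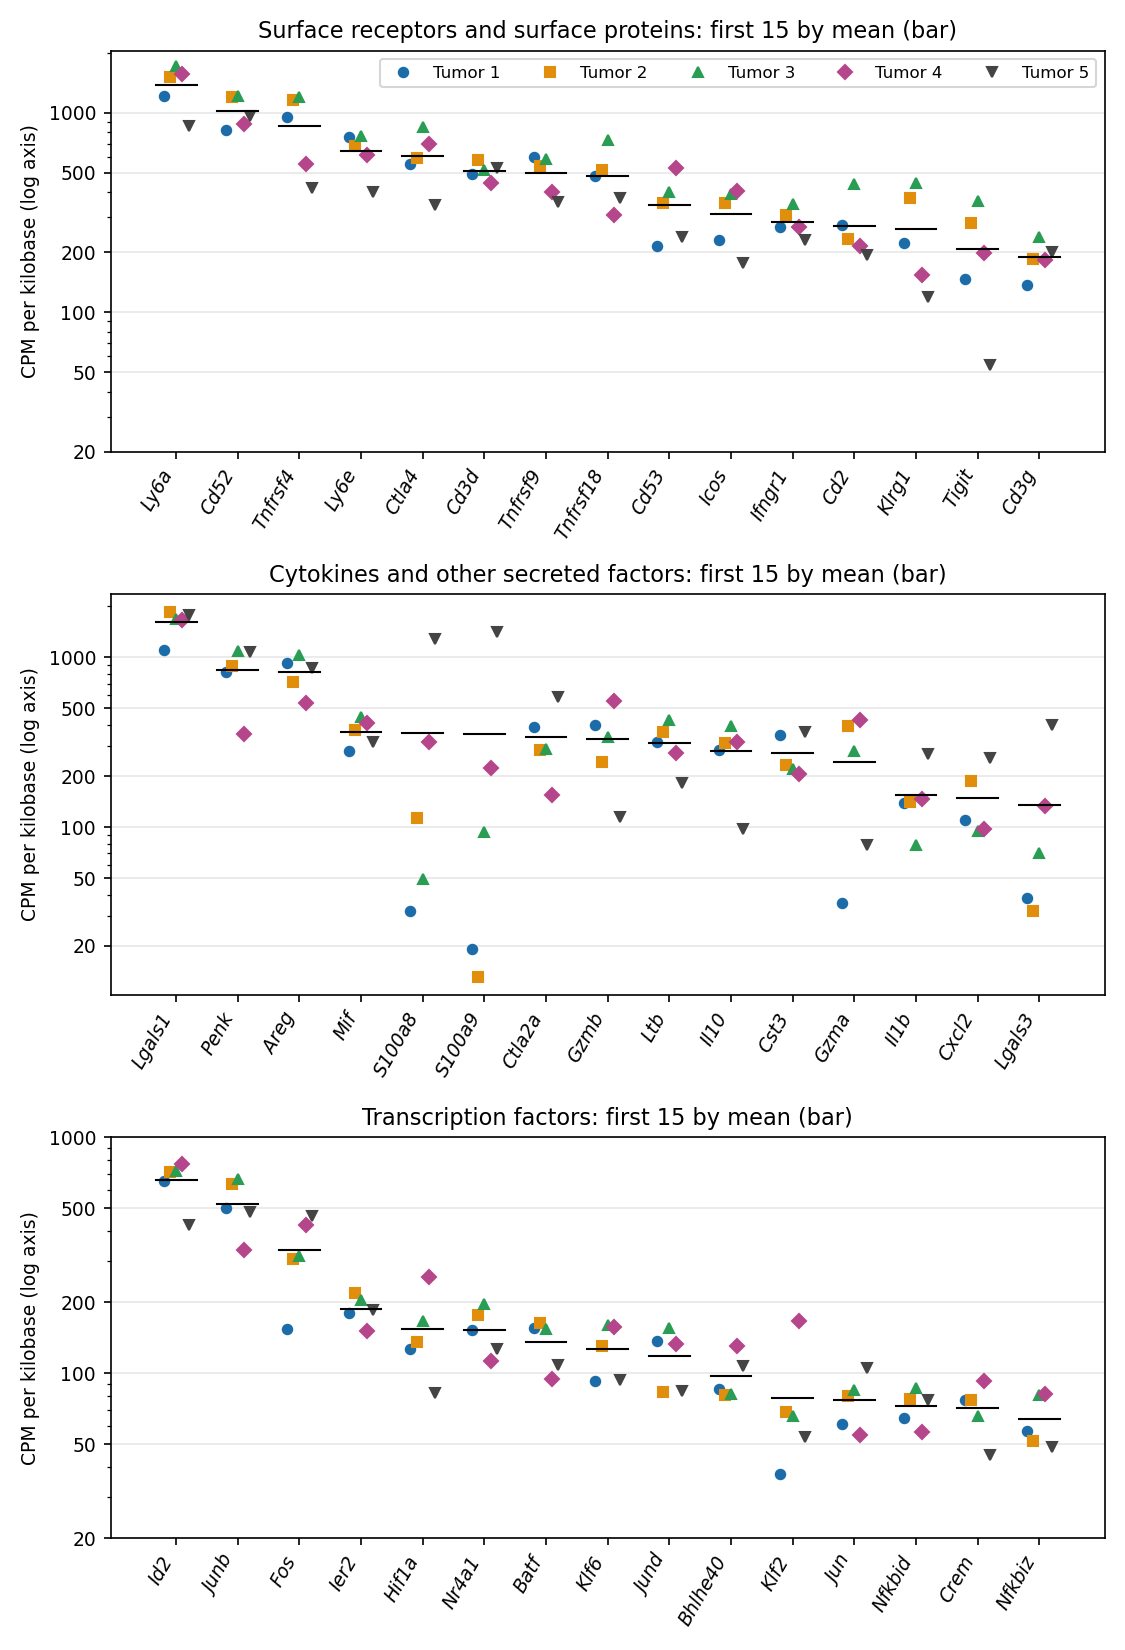
CPM per kb (log axis) of the first 15 genes of each class in the 5 Tumor libraries, 1 point per library, ordered by the mean, which is drawn as a bar. Points of neighbouring surface genes overlap, while S100a8, S100a9 and Lgals3 among the secreted factors are drawn up by replicate 5.

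Transcription factors were led per kb by Id2 (659 ± 138 CPM per kb), Junb, Fos, Ier2, Hif1a, Nr4a1, Batf, Klf6, Jund and Bhlhe40 (97.5 ± 21.5). Id2, an inhibitor of E-protein transcription factors, measured 1597, 1746, 1764, 1888 and 1034 CPM, and replicate 5 was lowest. Hif1a exceeded Nr4a1, the next in this order, in only 1 of 5 libraries, and its mean was 907 CPM with replicate 4 and 755 CPM without it. The set was the same under the median in place of the mean, and 6 of the 10 were among the first 10 in every library. Foxp3 was 46th of the 198 listed factors and 1854th of all protein coding genes. With the deposited annotation of 1469 transcription factor genes in place of the list, Id2, Junb, Fos, Nr4a1, Batf, Klf6 and Jund also came first, followed by the RNA- and DNA-binding Ybx1.

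The bZIP factors, which bind DNA as pairs and include the AP-1 proteins, supplied 4 of the first 10, and the 30 measured members summed to 3736, 4199, 4658, 4370.0 and 4373 CPM (CV 7.95%). Their single members moved more than the sum. Junb measured 1152, 1461, 1539, 765 and 1108 CPM and Fos 362, 716, 739, 1004 and 1093 CPM, and replicate 4 was lowest for Junb and second highest for Fos. Batf, which pairs with Jun proteins and is known from effector Tregs, measured 219, 230.2, 217, 133 and 153 CPM, and Jund 229, 139.8, 259.9, 222 and 140.1 CPM. Fos exceeded Jun per kb in every library, by 2.51 to 7.77 times. The 19 early response genes, a list that shares Junb and Fos with this group, all reached 1 CPM in every library and summed to 5077, 6529.9, 7864, 6658 and 5965 CPM. The 12 heat shock genes summed to 4977, 3864, 5461, 5135 and 5741 CPM.

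Because 4 of the 10 leading factors were bZIP proteins, the start-site windows of the 33 named genes were searched for letters that such factors are known to bind, as a description of sequence and not of binding. RefSeq windows (build GRCm38.p6, 250 bases before to 50 after each start) matched 24 of the 33 genes by symbol, with 27 windows. The motifs were TGANTCA, TGACGTCA and TGCGTCA, searched on both strands, and they occur in 7.81%, 1.79% and 2.12% of 32851 such windows. TGANTCA was found in windows of 3 genes (Tnfrsf9, Ctla2a and Gzmb), TGACGTCA in 2 (Areg and Mif) and TGCGTCA in 1 (Nr4a1). These are counts of genes, some with more than 1 window, whereas the percentages are per window, so they are not compared. The windows of Ctla2a overlap and each held the match. Windows of 3 of these genes are shown, 1 from each class, with motif letters in capitals, each 5′ to 3′ on the + strand, at chr4:150927749-150928048 for the second start of Tnfrsf9, chr5:91139349-91139648 for Areg and chr15:101266596-101266895 for Nr4a1.
Tnfrsf9: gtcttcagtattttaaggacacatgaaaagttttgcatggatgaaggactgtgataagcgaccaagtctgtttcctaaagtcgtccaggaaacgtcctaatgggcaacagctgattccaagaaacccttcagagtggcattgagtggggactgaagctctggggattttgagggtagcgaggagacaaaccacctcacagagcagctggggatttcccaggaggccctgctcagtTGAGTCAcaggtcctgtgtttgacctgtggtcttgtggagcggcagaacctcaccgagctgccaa
Areg: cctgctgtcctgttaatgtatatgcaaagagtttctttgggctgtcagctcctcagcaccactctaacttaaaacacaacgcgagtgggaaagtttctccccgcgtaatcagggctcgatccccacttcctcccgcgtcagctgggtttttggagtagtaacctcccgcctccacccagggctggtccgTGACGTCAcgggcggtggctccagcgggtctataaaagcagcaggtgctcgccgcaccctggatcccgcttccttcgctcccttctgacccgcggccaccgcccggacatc
Nr4a1: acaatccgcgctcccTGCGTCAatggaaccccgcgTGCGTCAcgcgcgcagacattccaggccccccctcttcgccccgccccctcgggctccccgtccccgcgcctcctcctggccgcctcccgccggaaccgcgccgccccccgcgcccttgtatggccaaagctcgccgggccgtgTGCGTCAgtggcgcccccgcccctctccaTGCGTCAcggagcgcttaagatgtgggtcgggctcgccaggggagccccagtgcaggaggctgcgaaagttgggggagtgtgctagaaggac
In Tnfrsf9 the capitals begin 15 bases before the start, in Areg 61 bases before, and in Nr4a1 there are 4 matches that begin 235, 215, 71 and 42 bases before it. The other start of Tnfrsf9 held no match, and no match says only that these letters are not in that window.

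Among the factors that T cell receptor signals induce, Ier2 measured 273, 333, 311, 231 and 284 CPM, Nr4a1 537, 623, 688, 396 and 447 CPM and Egr1 119.7, 150.3, 155, 130.0 and 139 CPM (CV 10.5%), and all 12 genes of the NFAT, Nr4a and Egr group reached 1 CPM in every library. NF-kappaB genes were also all present: the nuclear regulators Nfkbid and Nfkbiz averaged 72.7 ± 12.1 and 64.1 ± 16.1 CPM per kb, and the subunit Rel measured 134, 123, 119, 112 and 150.4 CPM (CV 11.8%). Hif1a, the hypoxia-regulated factor, measured 749, 799.8, 983, 1515 and 486 CPM, with replicate 4 over 3 times replicate 5. Klf2, linked to recirculating T cells, was highest in replicate 4 at 69.2, 127, 122, 309 and 99.3 CPM in replicates 1 to 5, the same library that was highest for S1pr1 and for Tcf7 (7.18, 17.02, 18.8, 84.1 and 8.01 CPM). By contrast Ccr7, given above, was lowest in replicate 4, and Il7r was highest in replicate 1. Cd8a and Nkg7 were also highest in replicate 4, and their part in these values was not tested.

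Lineage factors lay lower. Gata3, known from type 2 cells and tissue Tregs, measured 218, 205, 272, 226 and 184 CPM (CV 14.7%) and was 17th of the class. Maf measured 258, 362, 387, 415 and 292 CPM and Runx3 140.2, 129.6, 141, 216 and 84.6 CPM. Ikzf2 (Helios), a partner of Foxp3 in many Tregs, was less even at 230.4, 507, 531, 764 and 211 CPM, with replicates 1 and 5 below the others, and exceeded its relative Ikzf4 (Eos) per kb by 1.70 to 3.62 times. Ets1, a factor of resting and activated T cells, measured 308, 400.1, 557, 582 and 214 CPM, and the glucocorticoid receptor Nr3c1 231, 246, 367, 473 and 339.5 CPM, each highest in replicate 4. Of the forkhead factors other than Foxp3, Foxo1 measured 162, 84.8, 122, 223 and 86.3 CPM and Foxp1 65.9, 85.1, 79.2, 121 and 92.8 CPM. Among the STAT and IRF factors, which act downstream of cytokine and interferon receptors, Stat6 was even at 74.3, 74.3, 70.99, 69.04 and 72.8 CPM (CV 3.15%) while Irf1 was lowest in replicate 5 at 117, 149, 167, 225 and 25.8 CPM in replicates 1 to 5.

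Among the remaining sequence-specific factors, the homeodomain protein Hopx measured 91.5, 75.96, 81.1, 57.99 and 38.03 CPM and was highest in replicate 1, and the genome organiser Ctcf 142, 102, 136, 111 and 87.8 CPM. Smad7, the feedback inhibitor of TGF-beta signalling, measured 75.9, 89.4, 104, 99.9 and 68.3 CPM (CV 17.3%). In this group 39 of 42 genes reached 1 CPM in every library, against 15 of 15 STAT and IRF factors and 5 of 5 Ikaros factors.

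The cell state lists that follow are set beside the median of 9.38 CPM over all protein coding genes. The 23 genes of an activated tissue Treg list all reached 1 CPM in every library, with a median gene mean of 268 CPM and sums of 10207, 11164, 13614, 9237 and 8134 CPM. Replicate 3 was highest and replicate 5 lowest. Of 16 suppressive mediators 15 reached 1 CPM in every library (median 218 CPM, sums of 6189 to 9118 CPM). Naive and central memory genes, 10 of 10 above that level, had a median of 80.4 CPM and were highest in replicate 4 and lowest in replicate 5, with Il7r the largest contributor. These lists overlap with the leaders above and were made knowing earlier results of these data, so they add no independent support.

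Detection of growth and metabolism genes is set beside the 55.1% of all protein coding genes at 1 CPM in every library. The median gene mean was 38.6 CPM for the cell cycle list, 98.4 CPM for glycolysis and 54.8 CPM for the interferon response. All 20 cell cycle genes reached 1 CPM in every library, with sums of 1147, 1590.2, 1633, 1685 and 1443 CPM, and Pcna, the replication clamp, measured 120.2, 92.7, 147, 161 and 123 CPM. All 16 glycolysis genes did so too, with sums of 3591, 4713, 5977, 4987 and 5635 CPM. Ldha, lactate dehydrogenase, measured 984, 1374, 1517, 1165 and 1454 CPM (CV 16.97%). Of 22 interferon response genes 19 reached 1 CPM in every library. Their sums of 1314, 2244, 2349, 2239.9 and 1063 CPM split the libraries, with replicates 1 and 5 lowest and the other three close together. The interferon-inducible GTPase gene Igtp showed the same split at 94.3, 173, 207, 280.0 and 92.3 CPM, and a batch is not given for these libraries in the sources used here.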

How the data were processed

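Smart-seq2 RNA-seq of 5 sorted Treg samples was used, all in the group Tumor, whose group and replicate number came from the sample titles. The authors deposited raw whole-number counts per gene, and the 5 single-sample files held the same values as the table of the series. Per the labels' protocols, libraries were made with a transposase-based kit from cells sorted as CD45+CD3+CD4+CD25+GFP+. Per the submitters' processing notes, the build was mm10, with HISAT2 2.0.5 and featureCounts 1.5.0-p3. How strand and multiply mapped reads were handled, and which gene models were used, is not given in the sources used here. Genes with near-identical copies (Ctla2a, the granzymes, H2-K1 and H2-D1, the hemoglobin genes, Gm10800) and genes that overlap a neighbour are therefore uncertain, and division by gene length rests on the deposited lengths. The levels of Lars2, Gm10801 and Gm21738 are uncertain for the same reason.

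Counts were turned into CPM of the column total and CPM per kb with Python 3.11.15 and pandas 2.3.3. Correlations used log2(CPM + 1). Spread was given as the SD and CV over 5 libraries and as the dispersion of edgeR 4.0.16 (R 4.3.3, TMM scaling, filterByExpr, intercept alone, 10880 genes). The dispersion was tried on simulated counts in which every gene had the same dispersion, unlike these data. There the estimates fell below the true values. One group has no contrast, so no test between groups and no p-value was made. Distant libraries were marked by Dixon's gap criterion and pairs compared by chi-square per gene. SDs cover the spread between these samples. Totals of 3054435 to 7747699 make 1 count worth less than 1 CPM. A set of 872 listed genes was used, 3 of them not matched. The members, the gene lists and the rules were chosen with earlier results of these data known. Genes were named by rule: the 6 Treg markers, the 20 highest genes, the 10 highest of each class, up to 3 of each family, 2 to 4 of each list, and the 8 lowest and 8 highest CVs above 100 CPM; others, such as Pdcd1, Cd28, Tgfb1, Stat6 and the ligand Tnfsf9, were added after their values were seen. Alternatives changed the scaling, filters, pseudocount, ranking unit and libraries. The 5 other libraries of the series were not analysed here.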

Additional observations from a re-analysis of the deposited data

Results flagged for a closer look

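Of 122 values examined (64 gene levels, 49 list sums and 9 library measures), 19 had 1 library far from the other 4, with a gap to its nearest neighbour of more than 0.71 of the whole range. Chance alone marks about 1 in 20 values in this way where they are normally distributed and not chosen by their spread. That rate does not apply to Tff3, Hba-a1, Gpx2, S100a9, Muc2, Krt8, S100a8 and Krt19, which are 8 of the 19 and were named for their high CV, and genes and lists share members, so the marks are not independent. Replicate 5 was the distant library in 10, replicate 4 in 5, replicate 1 in 2, and replicates 2 and 3 in 1 each.

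Replicate 5 was highest for the epithelial genes Krt8 (1414 CPM, next library 288), Krt19 (786 CPM, next 205), Tff3 (719 CPM, next 11.6) and Gpx2 (1441 CPM, next 239). It was also highest for the neutrophil genes S100a8 (891 CPM, next 220.4) and S100a9 (736 CPM, next 116), for the 9 neutrophil genes together (1795 CPM, next 406), for Hba-a1 (812 CPM, next 98.7), for the red blood cell genes together (1258 CPM, next 244) and for the predicted gene Gm10801 (3417 CPM, next 766).

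Replicate 4 was highest for Muc2 (749 CPM, next 104) and for the sums of the interleukins and interferons (1834 CPM, next 1415), CD8 T cell genes (81.8 CPM, next 24.8), NK cell and innate lymphoid genes (438 CPM, next 123) and gamma delta T cell genes (119 CPM, next 29.99). Of the 438 CPM, the cytotoxic granule gene Nkg7 alone, 1 of the 8 genes listed, gave 414 CPM. Replicate 1 was highest for the plasma cell sum (3006 CPM, next 218) and lowest for Lgals1 (994 CPM, next 1501). Eef1a1 was highest in replicate 3 (4454 CPM, next 3191). Replicate 2 had the fewest protein coding genes at 1 CPM, 14524 against 17011 in the next library.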

How the results depend on the processing

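The median Spearman correlation of 0.805 was 0.694 over genes averaging 10 CPM or more, 0.690 over all genes with a count and 0.703 per kb, and the median Pearson correlation of 0.818 was 0.780 with a pseudocount of 0.1 and 0.866 with 10. Genes reaching the threshold in every library fell from 12153 at 1 CPM to 6267 at 10 CPM. The median CV of 46.2% was 27.0% for genes averaging 100 CPM or more, and the biological coefficient of variation of 49.3% was 51.0% without composition factors and 119% without a filter on low counts (47988 genes in place of 10880). With DESeq2 1.42.0 the square root of the median gene-wise dispersion was 42.6%. That is a different measure from the common value, so the tools are not compared by it.

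With each library left out in turn, the Spearman median lay between 0.789 and 0.818, the Pearson median between 0.806 and 0.840, the genes at 1 CPM in every remaining library between 12417 and 13801 (highest without replicate 2), and the genes shared by the highest 100 between 65 and 77. The median CV, over genes averaging 10 CPM chosen anew in each set, lay between 41.5% and 48.5% (lowest without replicate 5; 43.0% over the same 10709 genes), and the biological coefficient of variation between 49.0% and 51.8%. Of the first 10 genes, 9 or 10 surface genes, 8 or 9 secreted factors and 10 of 10 transcription factors stayed in the first 10. Ranked by CPM in place of CPM per kb, 8, 7 and 7 stayed.

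For 33 named genes, 5 of 132 mean levels under other scalings moved by more than the SD between libraries, and 19 of 98 list sums did, all 19 under the share of protein coding counts, which has a smaller total and so raises every level. Without replicate 5 the mean level fell from 249 to 89.1 CPM for S100a8 and from 184 to 45.4 CPM for S100a9, and the mean sum from 496 to 172 CPM for the neutrophil genes, from 305 to 66.1 CPM for the red blood cell genes and from 1920.2 to 962 CPM for the epithelial genes. Without replicate 4 it fell from 29.4 to 16.3 CPM for the CD8 T cell genes, from 156 to 85.0 CPM for the NK cell and innate lymphoid genes and from 38.4 to 18.2 CPM for the gamma delta T cell genes. Of the 156 CPM, Nkg7 alone averaged 129 CPM. Without replicate 1 the mean sum fell from 746 to 181 CPM for the plasma cell genes. A total without 3 abundant gene models (CT010467.1, Lars2 and Gm10800) was added after seeing the data and gave a median CV of 46.5%. No paired analysis was possible because 1 group is described, so the replicate numbers pair no samples. Genes under about 1 CPM rest on few reads, and 3 reads stand for 0.387 to 0.982 CPM.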

Other observations

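Genes high in a single library also included others that are not described above. In replicate 1 the 109 genes included the olfactory receptor genes Olfr878 at 48.4, 9.17, 4.52, 8.80 and 0.250 CPM and Olfr502 at 44.9, 4.91, 0.258, 0.863 and 1.001 CPM in replicates 1 to 5. Other olfactory receptor genes were high in replicate 2 (Olfr635, 58.3 CPM, next 10.3), replicate 3 (Olfr894, 16.1 CPM, next 1.04) or replicate 4 (Olfr362, 43.0 CPM, next 6.41). Whether such reads come from transcripts of these genes was not tested. In replicate 2 the chemokine Ccl12, a monocyte attractant, measured 0.256, 49.8, 3.48, 1.21 and 9.01 CPM. Genes far below every other library were most numerous in replicate 2, at 191 against 15 to 52 in the other libraries. Among these Iscu, a scaffold for iron-sulfur clusters, measured 56.4, 11.1, 61.3, 58.5 and 86.6 CPM.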
